A study of Mus musculus with 2 samples.

Results

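The voltage-gated sodium channel genes described here are Scn1a, Scn2a, Scn3a, Scn8a and Scn9a, which encode pore-forming alpha subunits, and Scn2b, Scn3b and Scn4b, which encode auxiliary beta subunits. They are 8 of the 31053 genes in the deposited count matrices, and were chosen by name as members of 1 gene family, not by their values. Their unique molecular identifiers (UMIs) were summed per library and per deposited neuron label and scaled so that every sum holds 1000000 UMIs (CPM), with the share of nuclei that held at least 1 UMI.

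An alpha subunit forms the pore that opens on depolarization and carries the rising phase of the action potential. Beta subunits are single-pass membrane proteins that bind alpha subunits and change their gating and their placement in the membrane. In cortex the protein of Scn1a is known above all from parvalbumin interneurons, that of Scn2a from the proximal axon initial segment of excitatory neurons, that of Scn8a from the distal axon initial segment and nodes, and that of Scn3a from the developing brain.

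The nuclei came from Atf3-CreER:+/wt; SUN-SfGFP:+/wt mice over 7 weeks old that received a mild traumatic brain injury (mTBI) and were taken at 7 days post injury (dpi), after tamoxifen at 4 and 5 dpi. GFP+ DRAQ5+ nuclei were sorted from the ipsilateral cortex, and each of the 2 libraries, 1 male and 1 female, held a pool of 4 animals. The reporter is a nuclear membrane GFP that Cre switches on for good in cells with active Atf3, an injury-induced transcription factor, at the time of tamoxifen, so every nucleus compared here, in all labels, shares the injury, the transgenes and the sort. Uninjured nuclei were not analysed here, a fall or rise after injury could not be measured, and sex and library depth cannot be told apart. The female library carries male in a sex field of its public label, and female in its name and in the deposited table.

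The libraries held 11007313 (male) and 23202158 (female) UMIs in 4044 and 4214 called barcodes, with 1 barcode in common. Of 8171 nuclei with a deposited label, 2580 were in the authors' neuron subset, and 2499 of these fell in the 9 labels with at least 50 nuclei: 6 excitatory (L2/3 IT CTX-1, L2/3 IT CTX-2, L4/5 IT CTX, L5 PT CTX, L6 IT CTX and L6 CT CTX) and 3 inhibitory (Pvalb, Sst and Vip). IT stands for intratelencephalic, PT for pyramidal tract and CT for corticothalamic projection. The labels had been mapped from the same counts, so the groups were partly defined by genes that were tested. Inhibitory markers summed to between 724 and 4584 CPM in the inhibitory labels, and to at most 387 CPM in the excitatory ones. Excitatory markers summed to between 204 and 640 CPM in the excitatory labels and to at most 111 CPM in the inhibitory ones. The L6 IT label went against its name in part: its sums held up to 387 CPM of inhibitory and 1517 CPM of microglial markers. L2/3 IT CTX-2 held up to 164 CPM of inhibitory and 1734 CPM of microglial markers, with an estimated 40.7% of free RNA in the female library. These 2 labels were the shallowest, with a median of 1506 to 2708 UMIs in a nucleus against 3040.5 to 11808 in the others. L4/5 IT held 151 CPM of inhibitory markers in the female library. In both libraries 0% of L4/5 IT nuclei lay in a cluster led by their label, where it was the most frequent. Vip held 1167 CPM of microglial markers in the female library. Microglial nuclei (Micro-PVM, 4028 nuclei), which should lack these channels, served as background, although their sums held 365 and 111 CPM of excitatory markers, and barcodes with at most 100 UMIs as a measure of free RNA.

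Of the members, 6 had an entry among the RefSeq promoter sequences (GRCm38.p6), 8 windows in all because Scn2a and Scn8a have more than 1 start. A window of the 250 bases before an annotated start is shown for Scn2a and for Scn8a, the members with the most UMIs in annotated neurons. Each gene has a second window in the table, with 53.2% G and C and 9 CG dinucleotides in both, and the first windows are the ones shown. The Scn2a window is chr2:65620519-65620768 on the plus strand, with 29.6% G and C and 2 CG dinucleotides. The Scn8a window is chr15:100870395-100870644 on the plus strand, inside the annotated span of the gene, with 68.0% G and C and 30 CG dinucleotides. Capitals mark the CG dinucleotides.
Scn2a: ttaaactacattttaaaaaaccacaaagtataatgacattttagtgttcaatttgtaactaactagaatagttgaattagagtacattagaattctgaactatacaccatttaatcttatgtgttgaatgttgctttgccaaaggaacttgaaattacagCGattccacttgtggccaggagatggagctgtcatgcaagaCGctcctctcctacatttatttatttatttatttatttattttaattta
Scn8a: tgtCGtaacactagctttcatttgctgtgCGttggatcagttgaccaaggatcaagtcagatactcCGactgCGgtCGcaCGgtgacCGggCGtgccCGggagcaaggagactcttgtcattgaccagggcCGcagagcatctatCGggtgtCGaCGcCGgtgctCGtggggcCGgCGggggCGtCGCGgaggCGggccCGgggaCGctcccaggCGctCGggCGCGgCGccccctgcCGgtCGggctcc
Over the 32851 windows of the table, the median was 52.4% G and C and 6 CG dinucleotides, and 5.94% of the windows had at least 30. Neither the cAMP response element (TGACGTCA), nor the AP-1 element (TGANTCA), nor the left part of the RE1 element bound by Rest (TTCAGCACC) occurred on either strand in a window of the members, against 1.55%, 6.75% and 0.301% of all windows. The windows of Scn1a, Scn2b and Scn4b were shorter, at 247, 156 and 21 bases. Libraries of 3′ ends do not show which start was used.

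Per length, Scn2a and Scn8a had the highest levels of the family in annotated neurons, the 2580 nuclei of the neuron subset. A nuclear count rises with the length of a gene, because reads in introns count, so genes were compared per kilobase of gene span. On that scale of CPM per kb (given here as male and female), Scn2a (chromosome 2, 65620771 to 65767447) stood at 1.61 and 1.45 and Scn8a (chromosome 15, 100869858 to 101045938) at 1.45 and 1.22. Scn3a (chromosome 2, 65457118 to 65567627), which neighbours Scn2a, stood at 1.02 and 1.18, and Scn1a (chromosome 2, 66270778 to 66440840) at 0.397 and 0.479. The short beta subunit gene Scn2b (chromosome 9, 45117782 to 45130070) stood above Scn1a per kb, at 0.758 and 0.538, and Scn3b (chromosome 9, 40269217 to 40291618) at 0.335 and 0.342. Scn4b (chromosome 9, 45138395 to 45154152) had 0.0933 and 0.110, and Scn9a (chromosome 2, 66480080 to 66634962), the peripheral alpha subunit known from pain neurons, 0.0274 and 0.0326. Genes of the opposite strand overlap Scn1a, Scn3a, Scn9a, Scn2b and Scn3b, and Gm13627, of the same strand, also overlaps Scn9a. Whether the counting used strand is not given in the sources used here, and a part of these neighbours in the 5 counts was not tested.

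Scn1a varied most between labels among the alpha subunits with high counts. Its level (CPM, male and female) was 114 and 211 in Vip, 141 and 161 in L4/5 IT, 72.5 and 115 in Pvalb, 54.6 and 109 in L2/3 IT CTX-2, 66.9 and 85.3 in L6 CT, 64.1 and 64.7 in Sst, 57.6 and 60.4 in L5 PT, 48.7 and 51.7 in L2/3 IT CTX-1 and 25.1 and 34.1 in L6 IT. Vip and L4/5 IT overlapped at the top, Pvalb overlapped L2/3 IT CTX-2 and L6 CT, and the labels from Sst down to L6 IT each lay below the one before in both libraries. Microglia had 24.9 and 17.8 CPM and free RNA 66.3 and 68.5 CPM, so the L6 IT level in the male library was 1.01 times that of microglia. Sst, L5 PT, L2/3 IT CTX-1 and L6 IT lay below free RNA in both libraries. Free RNA was an estimated 4.27 to 16.8% of the UMIs of these 4 labels, so its CPM is not a floor for them.

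Among the 9 labels, Scn2a, the excitatory alpha subunit of the proximal initial segment, was highest in L6 CT (425 and 292 CPM), L4/5 IT (296 and 245 CPM), L2/3 IT CTX-1 (278 and 228 CPM) and Vip (227 and 256 CPM), neighbours that overlapped. Pvalb (221 and 227 CPM) and Sst (230 and 214 CPM) followed in order of the mean, where Sst also overlapped Vip, and L5 PT (186 and 177 CPM) was lower than both of these in each library. L2/3 IT CTX-2 (175 and 184 CPM) overlapped L5 PT, and L6 IT (90.4 and 134 CPM) was the lowest. All 9 labels lay above microglia, which had 45.7 and 33.6 CPM.

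Scn8a had 430 and 263 CPM in L6 CT, 331 and 279 in L4/5 IT, 262 and 258 in L2/3 IT CTX-2, 255 and 224 in Pvalb, 291 and 180 in L6 IT, 246 and 224 in L2/3 IT CTX-1, 233 and 193 in L5 PT, 179 and 222 in Vip and 212 and 179 in Sst. Only L4/5 IT and L2/3 IT CTX-2 stood apart from the label below them in this order, since the ranges of the other neighbours overlapped. Scn3a, the developmental subunit, had the narrowest range, from 83.9 to 162 CPM in 8 labels and 74.2 in L2/3 IT CTX-2 of the female library, with Sst (148 and 157 CPM) and L6 CT (162 and 137 CPM) at the top. Its levels lay 4.18 to 11.9 times above those of microglia.

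**Figure D1:**
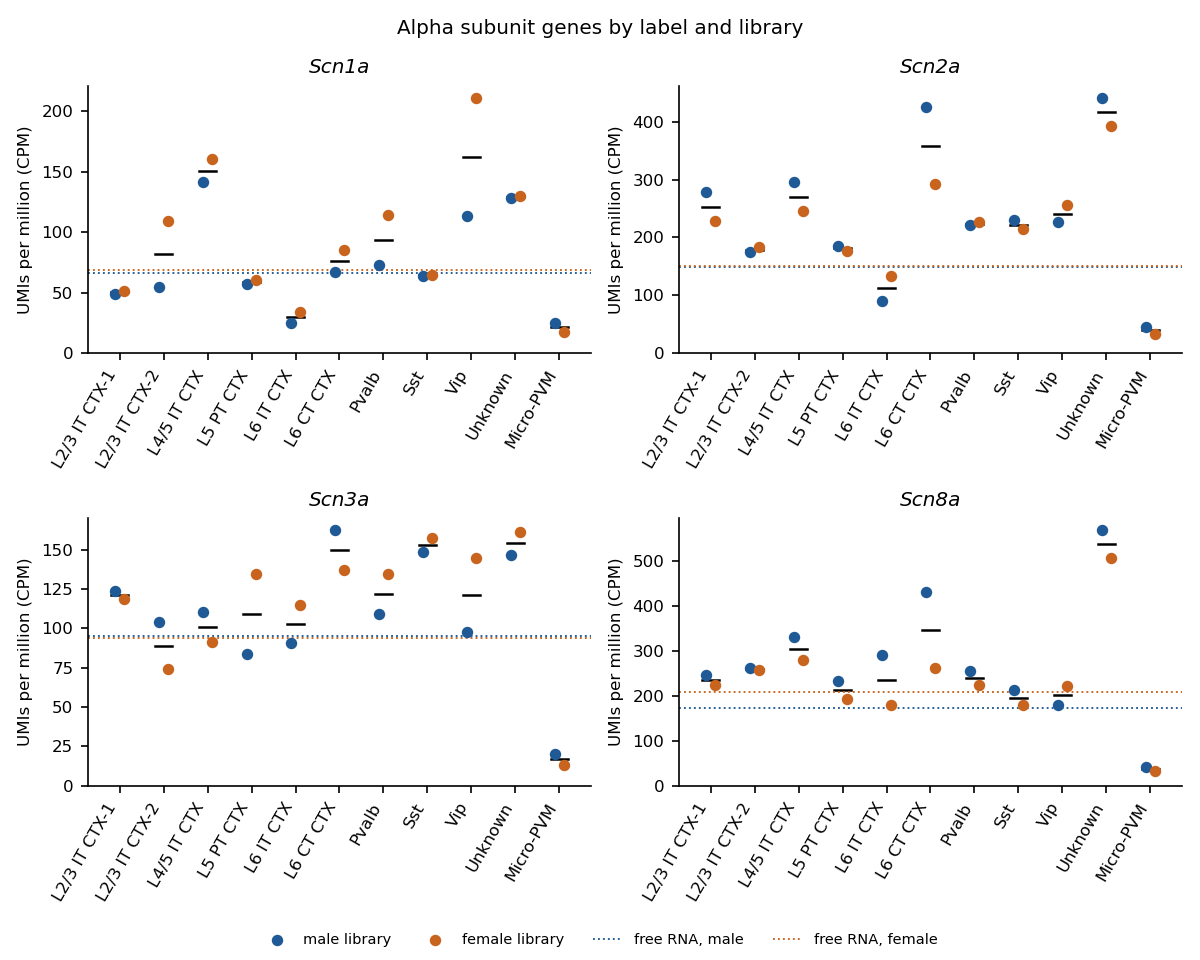
Levels of the alpha subunit genes Scn1a, Scn2a, Scn3a and Scn8a (CPM, vertical axis from 0) in each deposited label, in Unknown nuclei and in Micro-PVM nuclei (horizontal axis). Points are the male and the female library, black bars their mean, and dotted lines the level in free RNA; Scn8a reached 568 and 506 CPM in Unknown nuclei against at most 430 CPM in an annotated label.

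The other members were near background in most labels. Scn9a had at most 15 UMIs in a sum, with 9.67 and 11.3 CPM in L4/5 IT, and none in either library in L6 IT or L6 CT. With 0 UMIs, these sums allow up to 15.1 and 7.31 CPM in L6 IT and up to 14.3 and 6.73 CPM in L6 CT (3 counts per sum, counting error only). Scn2b ranged from 0 to 21.8 CPM, and free RNA held 24.8 and 11.96 CPM of it, above every label in the male library. Scn4b, the beta subunit known from fast-spiking neurons, had 0 and 0.516 CPM in Pvalb, 1 UMI in all, against 2.81 and 1.49 CPM in microglia. A level of Scn4b in Pvalb nuclei was not detectable at this depth, at which 0 UMIs in the male library allow up to 4.73 CPM.

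Scn3b was the beta subunit gene with the clearest differences between labels. It had 25 and 39 UMIs in L2/3 IT CTX-1 (15.0 and 17.7 CPM), 6 and 11 in Sst (7.54 and 7.65 CPM), 3 and 11 in L5 PT (1.84 and 3.18 CPM) and 1 and 3 in Pvalb (1.58 and 1.55 CPM). Microglia had 3.21 and 3.48 CPM, and L5 PT and Pvalb were below them in both libraries, while L2/3 IT CTX-1 was 4.69 and 5.08 times above. Free RNA had 20.7 and 5.44 CPM, above L5 PT and Pvalb in both libraries and above L2/3 IT CTX-1 in the male library. It was an estimated 3.22 to 11.0% of the UMIs of L5 PT and Pvalb, so its CPM is not a floor. L6 CT held 0 and 2 UMIs.

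**Figure D2:**
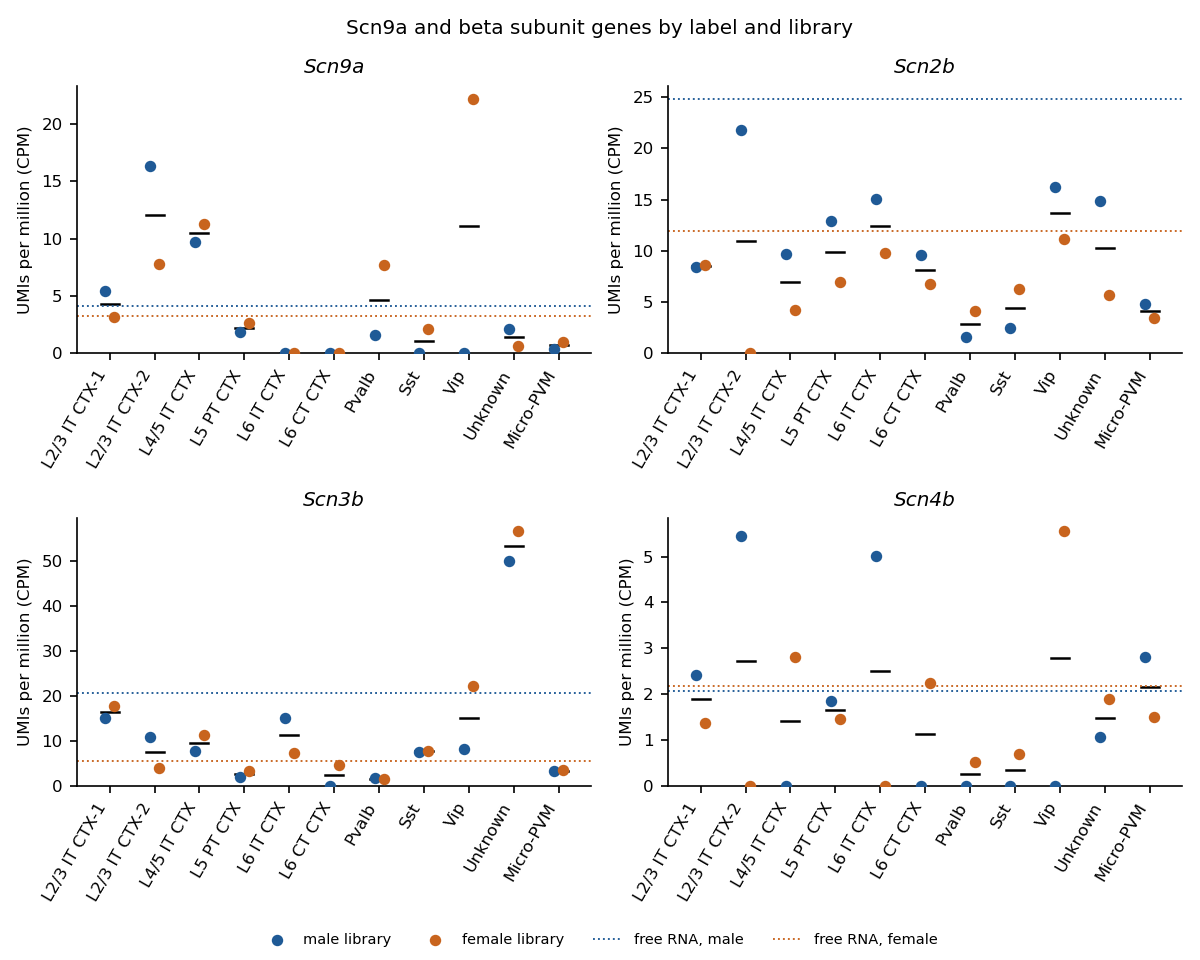
Levels of Scn9a, Scn2b, Scn3b and Scn4b (CPM, vertical axis from 0, scaled per gene) by label, drawn as for the alpha subunits. Scn3b stood at 49.98 and 56.8 CPM in Unknown nuclei and at most 22.2 CPM elsewhere, while Scn4b stayed between 0 and 5.56 CPM.

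The share of nuclei with a UMI followed depth as well as level. Scn8a was found in 54.0% of L5 PT nuclei in the male library (95% exact binomial interval 48.6 to 59.3%) and 75.9% in the female library (70.5 to 80.7%), at a median of 3790 and 10700 UMIs in a nucleus. Thinning every nucleus to 2300 UMIs left out 84 and 9 shallower L5 PT nuclei and gave shares of 39.3% and 34.4%. In microglia the shares were 5.62% and 10.1% at medians of 1298.5 and 3012.5 UMIs, and 8.27% and 6.88% after thinning, which left out 1496 and 649 nuclei. Thinned shares of Scn1a were 12% and 12.5% in L5 PT, 9.08% and 9.50% in L2/3 IT CTX-1 and 21.4% and 24.4% in L4/5 IT, the same order as the CPM. Intervals cover counting error only, not the spread between animals.

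Levels were then tested across the 18 sums of library and label, with p-values that measure only the spread between 2 pools. Scn9a, Scn2b and Scn4b did not pass the filter on low counts, which a gene can pass through the 1 label where it is high, so 5 members were tested among 8664 genes. Over all 9 labels, Scn1a (adjusted p = 9.39e-05), Scn2a (adjusted p = 0.00058) and Scn3b (adjusted p = 0.00355) differed in the quasi-likelihood test of edgeR after Benjamini-Hochberg adjustment. Scn8a (adjusted p = 0.0667) and Scn3a (adjusted p = 0.206) did not pass. That is 3 of 5 tested members called, against 36.3% of all genes tested. Of these, Scn3b passed the filter through the labels where it is high. With the library as a replicate block, all 5 were called in edgeR, Scn8a at an adjusted p of 0.0118 and Scn3a at 0.0424. The block also called more of all genes, 4142 of 8664 tested against 3144 without it. DESeq2 called 5 of 8, the first 3 with Scn8a (adjusted p = 0.0142) and Scn9a (adjusted p = 0.046), beside 3434 of 13181 genes.

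The comparison of L5 PT with L2/3 IT CTX-1 asked how the deep projection neurons stand against the largest superficial label, since the study sets layer V against layer II/III neurons. Scn3b was lower in L5 PT, with the values above, and its groups did not overlap. It passed the filter on low counts through labels where it is high, L2/3 IT CTX-1 of this comparison among them. With only 3 and 11 UMIs in L5 PT, the size of the fold is uncertain, and the p-value is given with that limit. The log2 fold change was -2.52 (SE 0.51, edgeR quasi-likelihood test, adjusted p = 0.00135), and each library alone gave -2.72 (male) and -2.22 (female). It was 1 of 5 tested members called, against 13.1% of the genes tested, with 6.38% called and higher and 6.75% called and lower. The log2 value of Scn2a was -0.45 (SE 0.19, edgeR adjusted p = 0.141), with 186 and 177 CPM in L5 PT below 278 and 228 CPM in L2/3 IT CTX-1, and was called with the library as a block (adjusted p = 0.0327). The changes of Scn1a (+0.26, SE 0.26), Scn3a (-0.09, SE 0.22) and Scn8a (-0.12, SE 0.19) did not pass. Scn3b rests on 14 UMIs in L5 PT, a level at the microglial background, and it fell below the filter, with no test, when free RNA was subtracted, when nuclei with a microglial UMI were left out, when labels of 20 nuclei were added and when nuclei outside clusters led by their label were left out.

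Against the mean of the other excitatory labels, 0 of 5 tested members were called for L5 PT, against 16.7% of genes tested, 9.91% higher and 6.74% lower. At an unadjusted p under 0.05 in edgeR the count was 1, Scn3b, at -1.48 on the log2 scale (SE 0.54, adjusted p = 0.0666), and DESeq2 called 0 and had 2 at that level. At the same level edgeR had 2392 of all 8664 genes and DESeq2 2279 genes, and DESeq2 called 1256 of 11457 after adjustment. With the replicate block, Scn3b was called (edgeR adjusted p = 0.0406). Without the L6 IT and L2/3 IT CTX-2 labels, a choice made after seeing the data, Scn2a was lower in L5 PT (log2 fold change -0.65, edgeR adjusted p = 0.00396) and was the only member called.

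Inhibitory labels had more Scn1a than excitatory labels. Its values were 64.1 to 211 CPM in the 6 inhibitory sums and 25.1 to 161 CPM in the 12 excitatory ones, and L4/5 IT, L2/3 IT CTX-2 and L6 CT overlapped the inhibitory range. The difference of the label means was +0.67 in log2 (SE 0.17, edgeR quasi-likelihood test, adjusted p = 0.00479), and each library alone gave +0.58 (male) and +0.75 (female). It was 1 of 5 tested members called, against 24.5% of genes tested, 11.9% called and higher and 12.6% called and lower. Without the Vip label, an alternative added after seeing the data, the difference was +0.35 and no longer passed (edgeR adjusted p = 0.136), while Scn3a passed at +0.43 (adjusted p = 0.03). When nuclei with a microglial UMI were left out, the call was lost as well (+0.51, edgeR adjusted p = 0.0552). In nuclei of clusters led by their own label, which leave out L4/5 IT, it was +1.61 (adjusted p = 7.0e-05), where the median of all genes stood at +0.31. The values of Scn2a (+0.19, SE 0.11), Scn3a (+0.34, SE 0.15), Scn8a (-0.21, SE 0.11) and Scn3b (-0.12, SE 0.41) did not pass.

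Between Pvalb and Sst, the fast-spiking and the larger non-fast-spiking interneuron label, 0 of 5 tested members were called, against 7.81% of genes tested, 4.01% higher and 3.81% lower. At an unadjusted p under 0.05 edgeR had 2 members and DESeq2 1, with 0 called by DESeq2. At that level edgeR had 1439 of all 8664 genes and DESeq2 1342 genes, and DESeq2 called 627 of 10595 after adjustment. Scn1a had 72.5 and 115 CPM in Pvalb against 64.1 and 64.7 CPM in Sst, and the groups did not overlap. The difference was +0.60 on the log2 scale (SE 0.28, edgeR adjusted p = 0.266), and it was called with the library as a block (adjusted p = 0.0401). For Scn3b it was -2.19 (SE 0.76, edgeR adjusted p = 0.0928), from 4 UMIs in Pvalb and 17 in Sst.

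**Figure D3:**
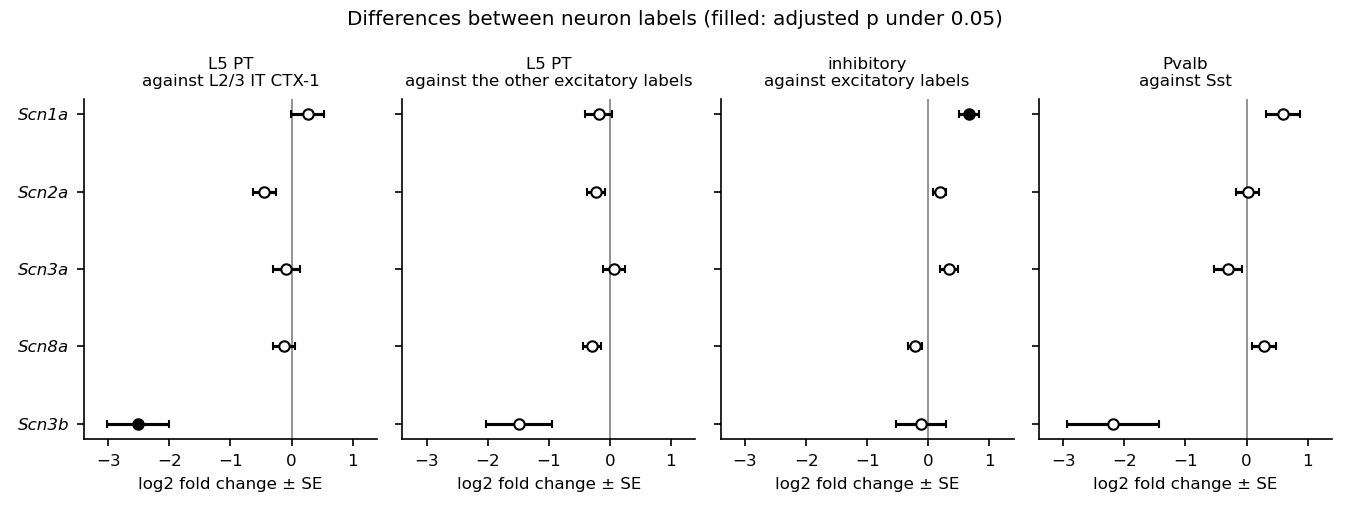
Log2 fold changes with their standard errors (horizontal axis) of the 5 members that passed the filter (vertical axis), for each comparison of labels. Filled points passed the threshold on the adjusted p, which were Scn3b in L5 PT against L2/3 IT CTX-1 (-2.52) and Scn1a in inhibitory against excitatory labels (+0.67). Scn3b had only 3 and 11 UMIs in L5 PT and passed the filter through labels where it is high.

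The 395 nuclei that the deposited table labels Unknown had the highest level of Scn8a and Scn3b of all groups, with ranges apart from the next label. Their means were also the highest for Scn2a (417 CPM) and Scn3a (154 CPM), where the ranges overlapped those of L6 CT and Sst. The Unknown nuclei made up 2 deposited clusters, 7 (190 male and 143 female nuclei) and 23 (35 and 27 nuclei). Reference mapping had placed 335 of them with L2/3 IT CTX-1 and 51 with L6 IT. The clusters had been made from these counts, so the values are a description with no test. Scn8a had 568 and 506 CPM in Unknown nuclei and 255 and 215 CPM in annotated neurons, 2.23-fold and 2.36-fold higher. Scn3b had 49.98 and 56.8 CPM against 7.51 and 7.65 CPM, 6.65-fold and 7.41-fold higher. These 2 of 8 members were at least 2-fold higher in both libraries, against 10.5% of 8451 genes with at least 10 CPM in either group, a filter not put on the members. Of those genes, 14.4% were at least 2-fold lower. No count of lower members is set beside that share. Scn9a, for example, held only 2 and 1 UMIs in Unknown nuclei, with 26 and 58 in annotated neurons.

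Scn2a (441 and 392 CPM against 237 and 212) and Scn1a (129 and 130 CPM against 67.5 and 81.5) were higher in Unknown nuclei by 1.86-fold and 1.85-fold and by 1.91-fold and 1.59-fold. The gap was smaller for Scn3a, at 147 and 161 CPM against 112 and 130. Scn9a and Scn4b held at most 3 UMIs in a library of Unknown nuclei, and Scn2b 14 and 9. The 4 pan-neuronal genes (Snap25, Syt1, Rbfox3 and Meg3) summed to 7366 and 6757 CPM in Unknown nuclei. That was below each of the 9 labels, which had 10434 to 20823 CPM. Single genes of this list differed in direction. Snap25 stood lower in Unknown nuclei (505 and 414 CPM against 1008 and 866), Rbfox3 (1539 and 1712 CPM) stood above each of the 9 labels, which had 203 to 794 CPM, and Syt1 (2187 and 1947 CPM) lay within their range of 938 to 3030 CPM. Slc17a7, the vesicular glutamate transporter of cortical excitatory neurons, was 4.83-fold and 7.18-fold higher (222 and 137 CPM against 46.1 and 19.1). Lower in Unknown nuclei were also Atf3 (4.25 and 5.05 CPM against 104 and 169) and Rest, a repressor of neuronal genes (6.38 and 8.83 CPM against 46.4 and 49.8). The medians over all genes moved by -0.14 and -0.12 in log2. Summed over the family, Unknown nuclei had 1353 and 1254 CPM, annotated neurons 694 and 659 CPM and microglia 144 and 106 CPM.

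Scn8a also took a larger share of the UMIs of the 4 abundant alpha subunits in Unknown nuclei, 44.2% (95% exact binomial interval 41.4 to 47.1%) and 42.5% (40.3 to 44.8%), against 38.0% (36.5 to 39.5%) and 33.6% (32.5 to 34.7%) in annotated neurons. The share of Scn3a was smaller, 11.4% (9.68 to 13.4%) and 13.6% (12.1 to 15.2%) against 16.7% (15.6 to 17.9%) and 20.4% (19.5 to 21.3%). These intervals take each UMI as an independent draw, and leave out the spread between nuclei and between animals. Single labels came near these shares. Scn8a held 44.0% and 41.25% in L2/3 IT CTX-2 and 58.6% and 38.9% in L6 IT, and Scn3a held 12.6% and 11.8% in L4/5 IT. The remaining labels had smaller Scn8a shares than Unknown nuclei in both libraries. A share of all nuclei with a UMI showed the same order for Scn8a after thinning, with 69.5% and 67.5% of Unknown nuclei against 40.9% and 36.6% of L2/3 IT CTX-1 nuclei. Scn3b was found in 16.0% (11.5 to 21.5%) and 34.7% (27.6 to 42.4%) of Unknown nuclei, 10.2% and 11.6% after thinning, against 0.473% and 1.15% of microglia.

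**Figure D4:**
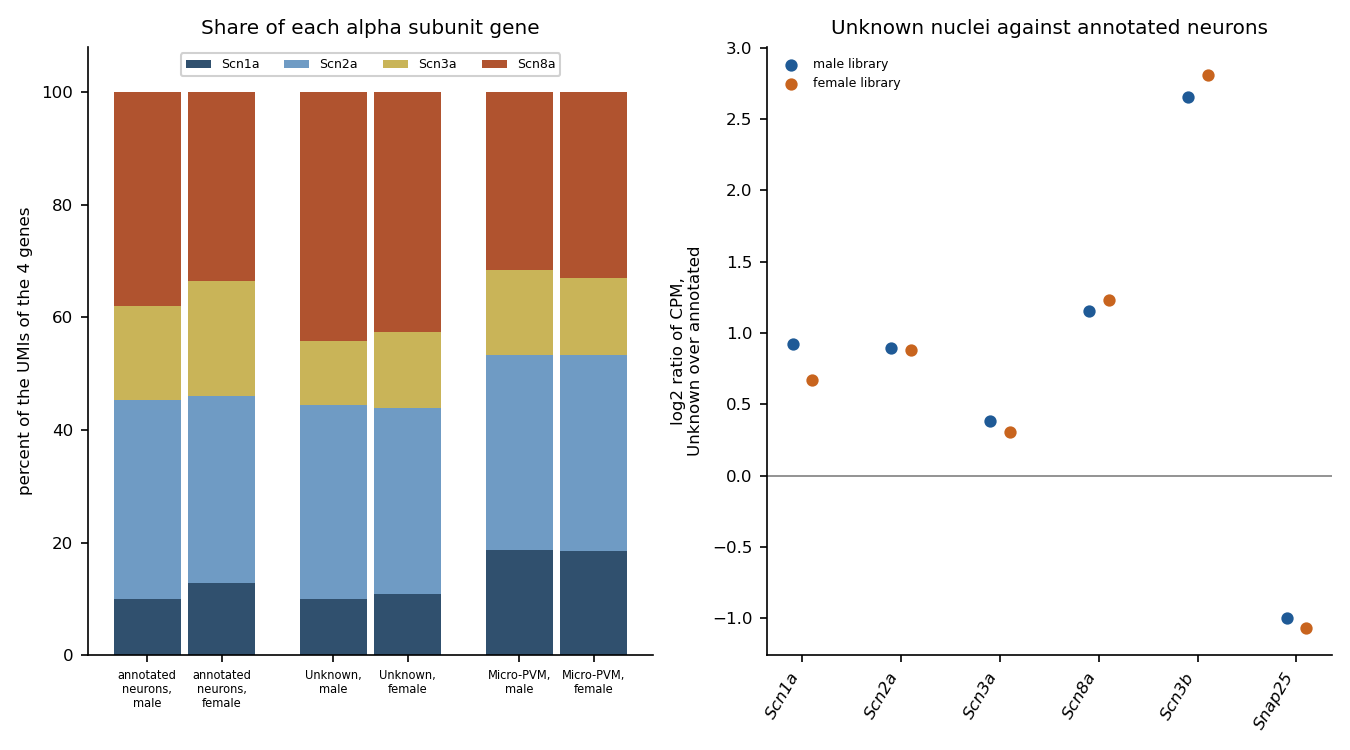
Left, the percent of the UMIs of Scn1a, Scn2a, Scn3a and Scn8a that each of them held (vertical axis) in annotated neurons, Unknown and Micro-PVM nuclei of each library. Right, the log2 ratio of CPM of Unknown nuclei over annotated neurons (vertical axis) for 5 members and Snap25 in each library, from 0.31 for Scn3a to 2.81 for Scn3b and below 0 for Snap25.

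Nuclei were also split by whether they held an Atf3 UMI at 7 dpi, in labels with at least 10 nuclei of both kinds (8 male, 9 female). Scn1a was lower in nuclei with an Atf3 UMI, with a mean over labels of 43.9 against 90.1 CPM (male) and 58.6 against 123 CPM (female). Labels were split on a gene of the same counts, so this is a description with no test. It was lower in 5 of 8 and in 9 of 9 labels, and was the only 1 of 8 members at least 1.5-fold lower in both libraries, against 3.15% of 8261 genes, with 1.69% at least 1.5-fold higher. The male mean rests on 82 UMIs in nuclei with Atf3, and Vip held 0 of them in 12 nuclei. In Pvalb, the label with the largest share of Atf3 nuclei, Scn1a had 31.7 against 147 CPM in the male and 110 against 161 CPM in the female library. In Sst it had 99.4 against 41.3 CPM (male) and 45.8 against 100.3 CPM (female), in opposite directions.

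Scn8a was lower as well, at 190 against 277 CPM in 8 of 8 male labels and 187 against 240 CPM in 7 of 9 female labels. Scn2a had 207 against 214 and 199 against 222 CPM, and Scn3a 110.0 against 113 and 123 against 115 CPM. Nuclei with an Atf3 UMI were deeper, with medians over labels of 1506 to 5712 (male) and 2575.5 to 12963 (female) UMIs, against 1485 to 4403 and 1432 to 9615 in those without. After thinning to 2300 UMIs, nuclei were split again by the Atf3 UMIs that were left, so some moved to the group without. In the female library Pvalb went from 129 nuclei with and 21 without to 83 and 64, and L5 PT from 135 and 155 to 51 and 230. With 4 male and 6 female labels left, Scn1a then had 49.9 against 71.9 CPM in the male library and 62.2 against 61.8 CPM in the female library. The female means did not show the difference in these labels. Sst then had more Scn1a with an Atf3 UMI in both libraries (90.0 against 56.5 and 50.6 against 35.9 CPM), and Pvalb had 45.3 against 105 CPM (male) and 126 against 102 CPM (female), each from 5 to 24 UMIs in a group. In the same nuclei Scn8a had 247 against 253 CPM in the male and 156 against 218 CPM in the female library. The parts of depth, of the nuclei left out and of the nuclei that changed group were not tested separately.

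**Figure D5:**
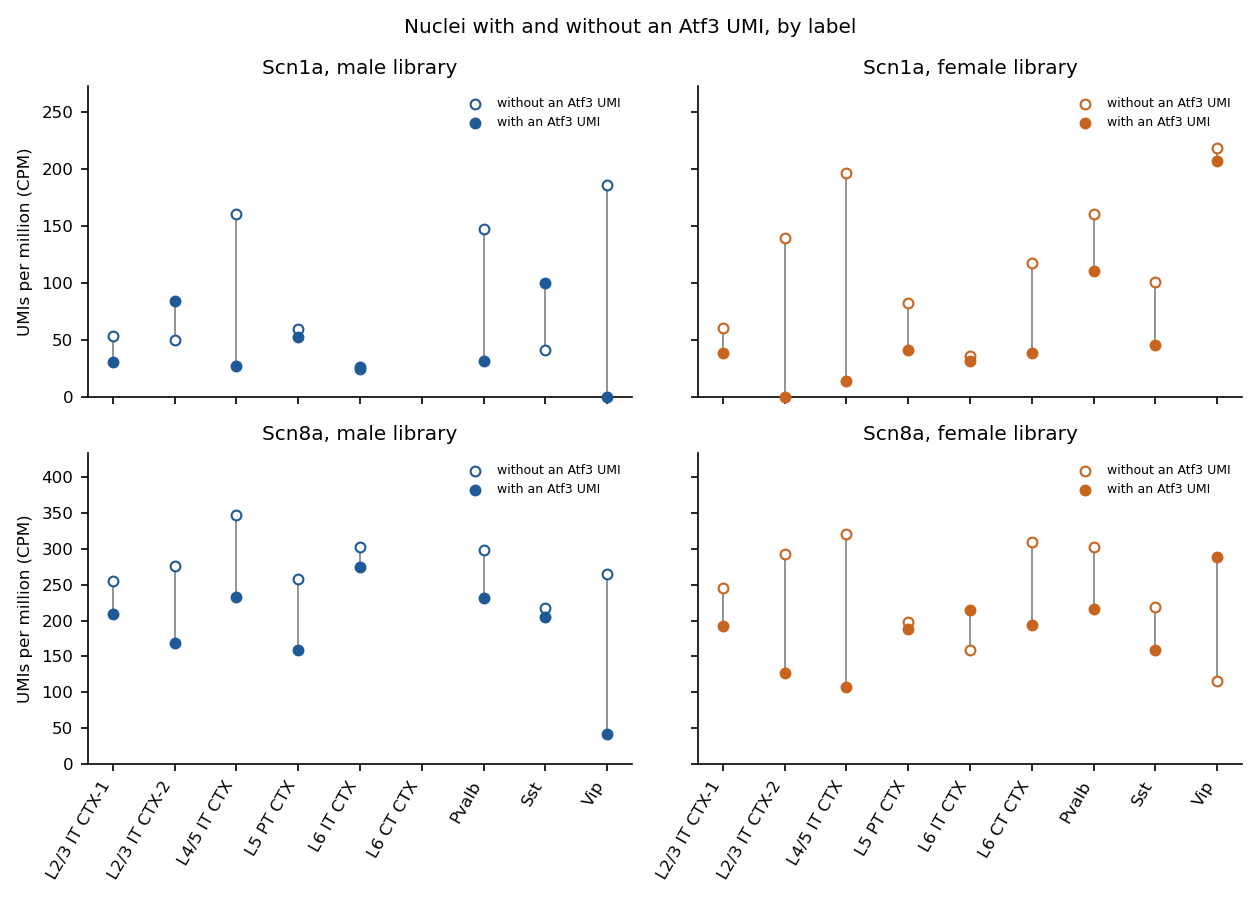
Scn1a (top) and Scn8a (bottom) in nuclei with (filled) and without (open) an Atf3 UMI, as CPM (vertical axis from 0), for each label with at least 10 nuclei of both kinds (horizontal axis) in the male (left) and female (right) library, all UMIs used. Scn1a was lower with an Atf3 UMI in 5 of 8 male and 9 of 9 female labels.

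Genes that act with these channels moved in both directions in L5 PT against L2/3 IT CTX-1. Of 7 other sodium channel genes, 2 were tested, and Nalcn, the sodium leak channel, was lower in L5 PT, with 89.4 and 86.8 CPM against 180 and 133 CPM (log2 fold change -0.79, edgeR adjusted p = 0.0115). Of 10 partners of the channel, 8 were tested, 1 rose and 3 fell, where 6.38% of all genes tested were called and higher and 6.75% called and lower. Cntn1, a cell adhesion molecule that binds beta subunits, had 69.8 and 72.3 CPM against 235 and 184 CPM (log2 fold change -1.52, edgeR adjusted p = 9.3e-06). Fgf14 (-0.66, edgeR adjusted p = 0.0199) and Nedd4l (-0.65, adjusted p = 0.0161), an intracellular fibroblast growth factor homologue and a ubiquitin ligase of channels, fell, and Fgf12 (+0.76, adjusted p = 0.0241), of the family of Fgf14, rose.

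Of 12 genes of the axon initial segment scaffold, all 12 were tested, and 3 rose and 1 fell in L5 PT, beside the same 6.38% and 6.75% of genes tested. Nrcam, an adhesion molecule of the segment, had 879 and 768 CPM against 354 and 334 CPM (log2 fold change +1.28, edgeR adjusted p = 0.000467). Ank2, an ankyrin, rose (+0.85, edgeR adjusted p = 0.00107), and Cntnap2, an adhesion molecule of the neurexin family, fell (-0.57, adjusted p = 0.0453). Median log2 fold changes were -0.12 over the 5 members tested, -0.39 over the partners and +0.24 over the scaffold, and -0.01 over all genes. Of 4 regulators, Rest rose (+0.90, edgeR adjusted p = 0.0299), and Mef2c, a neuronal transcription factor, fell (-0.67, adjusted p = 0.0119). Against the other excitatory labels, 1 of 2 other sodium channel genes tested, Nalcn (-0.77), and 3 of 8 partners fell, Cntn1 (-1.80), Fgf13 (-1.17) and Fgf14 (-0.65), while Fgf12 (+0.58) and 3 of 12 scaffold genes rose, Nrcam (+1.19) and Ank2 (+0.71) among them, where 9.91% of genes tested were called and higher and 6.74% called and lower.

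In inhibitory against excitatory labels, 4 of 8 partners tested were called, and Fgf13 had the largest change, +1.80 in log2 (edgeR adjusted p = 3.11e-09), followed by Nedd4l (-0.995, adjusted p = 1.2e-07), and Fgf12 rose as well (+0.45, adjusted p = 0.00427). Of the scaffold, Cntnap2 (+0.94), Mapre3 (+0.39) and Ank3 (+0.29) rose, the last encoding ankyrin G, the organizer of the segment. These 3 of 12 called lay near the share of all genes tested, 24.5%. No other sodium channel gene was called, and of the regulators Atf3 (+1.62) and Rcor1 (+0.48) rose and Mef2c (-0.59) fell. Between Pvalb and Sst, 2 partners were called, Fgf12 (+1.59, edgeR adjusted p = 3.8e-05) and Nedd4l (-1.12, adjusted p = 0.000316), and 3 of 12 scaffold genes, Nrcam (+0.98), Kcnq3 (-0.74) and Ank3 (-0.58), against 7.81% of genes tested. Rcor1 (+1.29), Atf3 (+1.19) and Mef2c (+0.88) were higher in Pvalb.

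Across the 18 sums, which share libraries and depth by pairs, the genes whose log2 CPM followed a member most closely were named as a description. For Scn2a they were Dock3 (Pearson r = 0.91), Cadps (0.87) and Braf (0.84). For Scn1a they were Map3k4 (0.85), Osbpl3 (0.84) and Lclat1 (0.82), for Scn8a Nav3 (0.85), Gm36388 (0.85) and Hnrnpll (0.80), for Scn3a Zfp292 (0.80), Vps13d (0.79) and Ulk2 (0.78), and for Scn3b Elmo2 (0.86), Cpne4 (0.80) and Dnajc27 (0.78). No member was among the closest genes of another: within the family, r was at most 0.63, for Scn1a and Scn2a, and -0.34 at the lowest, for Scn8a and Scn3b.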

How the data were processed

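Single-nucleus RNA-seq counts of 2 libraries were analysed. The authors counted UMIs with CellRanger (7.0.1 in the methods, 7.0.1 and 7.0.0 in headers, 3.1.0 in the submitters' processing notes) on a GRCm38 pre-mRNA reference (mm10) and deposited raw counts for called and for all barcodes (Cell Ranger 4 in those headers). The authors deposited a table with labels from Seurat MapQuery and the percent of mitochondrial UMIs per nucleus. The deposited matrix named as counts holds a corrected score, whose totals match the SCTransform totals of the table in 8171 nuclei, and was used for that check only. The limits in the methods had not been applied to the table, and 104 nuclei exceed them. Doublets were not called here.

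Reporter rows were left out. UMIs were summed per library and label of at least 50 nuclei, and no group holds more than 2 libraries. Tests used edgeR 4.0.16 in R 4.3.3 (TMM, filterByExpr by label, glmQLFit, glmQLFTest, Benjamini-Hochberg over all genes tested, threshold 0.05), and the biological coefficient of variation was 0.171. DESeq2 1.42.0 was an alternative. Python 3.11.15 gave levels and shares, with pandas 2.3.3, numpy 2.4.6 and scipy 1.17.1, and thinned shares as exact expected shares at 2300 UMIs. Ratios of 1 library have 0.5 CPM added. Intervals are Clopper-Pearson. The code for tests was checked on simulated counts.

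Each library is 1 pool, whose animals gave all its labels, which pairs the sums by library. Differences between libraries correlated between labels with r from 0.0308 to 0.476 over 36 pairs (median 0.178). Other alternatives were scaling, filters, the limits of the methods, free RNA subtraction, nuclei without a microglial UMI, labels of 20 nuclei, own clusters and each library alone. The members and lists were chosen with earlier results of these data known. Named are all 8 members, of each list at most 4 called genes by size of change, and the 3 genes correlated best with each tested member. Positions are from GENCODE vM21. Scn3a and Scn3b have no entry in the promoter table. Values of some genes of the lists are not reported here.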

Additional observations from a re-analysis of the deposited data

Results flagged for a closer look

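Scn3b differed in direction between the libraries when nuclei were split by an Atf3 UMI. Its log2 ratio of nuclei with over nuclei without was 0.93 in the male library, from 14 and 31 UMIs, with 4 labels lower and 4 higher, and -1.70 in the female library, from 27 and 55 UMIs, lower in 9 of 9 labels. The highest male levels with an Atf3 UMI rest on 1 UMI in L2/3 IT CTX-2 (42.1 CPM) and 3 UMIs in L6 IT (39.1 CPM). The difference between the libraries was not tested.

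Nuclei labelled as glia, which no comparison above used, had higher CPM of some alpha subunits than microglia. Scn8a was at 74.3 and 105 CPM (male, female) in astrocyte nuclei, from 12 and 48 UMIs, against 41.7 and 31.8 CPM in microglia. Oligodendrocyte nuclei had 74.0 and 66.1 CPM of Scn2a, from 4 and 13 UMIs, where microglia had 45.7 and 33.6 CPM. They had 74.0 and 71.2 CPM of Scn8a, from 4 and 14 UMIs. These levels lay below those of free RNA, 149 and 150 CPM for Scn2a and 172 and 208 CPM for Scn8a, whose part in them was not tested.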

How the results depend on the processing

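For L5 PT against L2/3 IT CTX-1, the count of members called went from 1 to 2 with the replicate block and to 0 with free RNA subtracted, without nuclei with a microglial UMI, with labels of at least 20 nuclei and with own-cluster nuclei, where fewer members passed the filter and Scn3b had no test. For L5 PT against the other excitatory labels it went from 0 to 1 with the block and without L6 IT and L2/3 IT CTX-2, for inhibitory labels from 1 to 0 without nuclei with a microglial UMI, and for Pvalb against Sst from 0 to 1 with the block. Over all labels it went from 3 to 5 with DESeq2, with no filter and with the block, to 4 without L6 IT and L2/3 IT CTX-2, and to 2 with free RNA subtracted and with labels of at least 20 nuclei. All genes called over all labels were 3144 of 8664 in the main fit and 4142 of 8664 with the block. They were 3434 of 13181 with DESeq2 and 4217 of 22234 with no filter. Without L6 IT and L2/3 IT CTX-2 they were 3316 of 9111, and with free RNA subtracted 2905 of 8527. For L5 PT against the other excitatory labels they were 2151 of 8664 with the block and 1763 of 9111 without those 2 labels. The block raised the genes called from 1138 to 1858 for L5 PT against L2/3 IT CTX-1 and from 677 to 1020 for Pvalb against Sst, and changed no other call of a member than those named. Own-cluster nuclei, with 8 labels, lowered the calls from 1443 to 866 and from 2127 to 1299 for L5 PT against the other excitatory labels and for inhibitory labels, with 764 higher and 102 lower and 1024 higher and 275 lower, and there moved the median of all genes by 0.44 and 0.31 in log2.

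Signs turned only for members without a call in the alternatives named here. Leaving out L6 IT and L2/3 IT CTX-2 or Vip, and cluster 7 alone, were chosen after seeing the data. With own-cluster nuclei, L5 PT against the other excitatory labels gave 0.84 for Scn1a, 0.15 for Scn2a and 0.28 for Scn8a, and inhibitory labels 0.28 for Scn8a. Scn3a in L5 PT against the other excitatory labels was -0.0091 with labels of 20 nuclei and -0.10 without L6 IT and L2/3 IT CTX-2. Without these labels, inhibitory against excitatory gave -0.11 for Scn2a and 0.00092 for Scn3b, and Scn2a in Pvalb against Sst was -0.0014 with free RNA subtracted. The causes were not tested.

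Mean log2 ratios of Unknown nuclei moved to 0.91 for Scn2a, 0.42 for Scn3a and 2.60 for Scn3b against excitatory labels only, and to 0.91 for Scn2a with cluster 7 only. After thinning, with nuclei split again by the Atf3 UMIs left and fewer labels, ratios by Atf3 UMI were -0.26 for Scn1a, -0.27 for Scn2a and -0.26 for Scn8a, from -1.05, -0.10 and -0.45. Members with under 10 UMIs on a side got no ratio.

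Limits: 2 pools, 1 per sex, give each spread. Depth differed between libraries and labels, Scn9a, Scn2b and Scn4b were too sparse for a test, and no uninjured nuclei were analysed here.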
